A study of Mus musculus with 4 samples.

Results

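The constitutive proteasome genes examined here encode the subunits of the standard 26S proteasome, its activators and its dedicated assembly chaperones. They were taken by symbol (Psma, Psmb, Psmc, Psmd, Psme or Psmg followed by a digit) among protein-coding genes, leaving out the immunoproteasome subunits Psmb8, Psmb9 and Psmb10, and required 1 FPKM or more in any library. Of 45 genes with such symbols, 43 were kept, out of 52550 genes in the table and 10177 protein-coding genes that passed the same filter. The 2 left out were Psma8, a testis form of an alpha subunit, at 0.38 FPKM in the OGT knockout at 24 h, 0.11 in the knockout at 0 h, 0.93 in WT at 24 h and 0.69 in WT at 0 h, and Psmb11, the beta subunit of the thymus proteasome, listed at 0 in all libraries. The member kept nearest to that limit was Psmd9, at 2.69 to 3.45 FPKM. The choice used levels and not the differences between groups.

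RNA had been sequenced from mouse bone marrow-derived macrophages (BMDMs), cells grown from marrow for 7 days with M-CSF at 20 ng/mL, the growth factor that drives macrophage differentiation. The 4 groups were OGT knockout cells polarised with IL-4 at 20 ng/mL for 24 h, OGT knockout cells at 0 h, WT cells polarised in the same way for 24 h, and WT cells at 0 h. Each group was 1 library, so no difference below could be set against the variation between cultures and no test was possible. The 0 h cells carry the same IL-4 tag as the others and their time label led to reading them as untreated, and 24 h of IL-4 and 24 h more in culture cannot be told apart. The sources used here do not give the mouse strain, ages, number of animals, deleted part of Ogt or any Cre used to delete it.

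The 20S core of the proteasome is a stack of outer alpha rings, which gate the entry, and inner beta rings, which hold the protein-cutting sites. The 19S cap has a base, whose ATPases unfold tagged proteins, and a lid, whose enzyme removes the ubiquitin tag. Activators of the Psme family can bind the core in place of the cap, and chaperones build the rings and the base and then leave. Most subunits are needed in fixed proportions, and their genes are known to be raised together by the transcription factor NFE2L1, while interferon raises Psme1, Psme2 and the immunoproteasome subunits. OGT is the enzyme that adds O-GlcNAc, a single sugar, to proteins inside the cell and is known to modify proteasome subunits.

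NFE2L1 acts through the antioxidant response element, so the promoters of the members were searched for TGACNNNGC and TGAGNNNGC on both strands. The windows held 250 bases before and 50 after each start site, from RefSeq (GRCm38.p6), and 36 of the 43 members had at least 1 entry. A match was found in 17 of 39 member windows (43.6%), against 31.2% of 10303 windows of the other protein-coding genes kept and 27.8% of 32851 windows in all. For TGACNNNGC alone the shares were 15.4% of member windows, 14.5% of windows of the other kept genes and 12.4% of all windows. The windows with the most matches were those of Psma4 (an alpha subunit), Psmc6 (a base ATPase) and Psmd12 (a lid subunit), with 2 each, and Psmb6, a catalytic subunit, had the highest level among members with 1. They are printed here, 5′ to 3′ on the strand of the gene and with the matches in capitals, as the members with the most matches. Psma4 is also the member with the largest IL-4 difference. The TGACNNNGC match of Psmb6 began 9 bases before the start site.
Psma4 (chr9:54950609-54950908, + strand): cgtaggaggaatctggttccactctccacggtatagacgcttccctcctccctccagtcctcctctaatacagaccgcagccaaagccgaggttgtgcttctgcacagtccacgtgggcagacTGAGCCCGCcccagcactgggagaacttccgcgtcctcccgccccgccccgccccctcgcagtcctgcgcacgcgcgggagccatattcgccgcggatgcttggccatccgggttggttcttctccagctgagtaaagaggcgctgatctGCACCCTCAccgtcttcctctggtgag
Psmc6 (chr14:45329574-45329873, + strand): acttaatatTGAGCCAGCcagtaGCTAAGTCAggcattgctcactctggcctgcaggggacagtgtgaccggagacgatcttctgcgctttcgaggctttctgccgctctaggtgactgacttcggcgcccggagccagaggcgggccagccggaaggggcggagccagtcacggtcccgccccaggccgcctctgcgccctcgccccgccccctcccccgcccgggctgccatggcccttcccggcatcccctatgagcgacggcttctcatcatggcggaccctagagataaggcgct
Psmd12 (chr11:107479278-107479577, + strand): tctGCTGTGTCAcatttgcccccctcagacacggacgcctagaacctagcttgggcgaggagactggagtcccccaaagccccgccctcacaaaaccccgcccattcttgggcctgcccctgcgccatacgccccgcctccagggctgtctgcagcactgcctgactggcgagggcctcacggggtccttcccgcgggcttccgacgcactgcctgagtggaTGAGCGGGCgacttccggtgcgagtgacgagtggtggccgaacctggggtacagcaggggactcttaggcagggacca
Psmb6 (chr11:70525107-70525406, + strand): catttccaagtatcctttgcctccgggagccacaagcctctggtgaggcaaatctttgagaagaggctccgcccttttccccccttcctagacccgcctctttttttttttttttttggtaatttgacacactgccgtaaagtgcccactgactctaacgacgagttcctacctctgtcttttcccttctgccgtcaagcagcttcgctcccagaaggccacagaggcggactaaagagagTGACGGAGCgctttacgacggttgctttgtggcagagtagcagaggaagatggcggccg

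The presence of a match went with little difference in the values. Among the 36 genes with a window, the median IL-4 difference in the knockout was 0.32 for the 16 with a match and 0.22 for the 20 without, on the log2 scale of FPKM + 1. In WT the medians were 0.35 with a match and 0.29 without. For the knockout minus WT they were −0.10 with a match and −0.15 without at 24 h, and close to 0 in both sets at 0 h. CCAAT, searched on both strands as the other short motif known at proteasome genes, was in 30.8% of member windows and 37.4% of all windows. A match in these letters is a description and not a binding site.

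Levels of the members lay within a narrow span compared with the whole table. In the knockout at 24 h the 43 values ran between 2.69 and 110.2 FPKM with a median of 30.2. In the knockout at 0 h they ran between 2.74 and 106.5 with a median of 23.7, in WT at 24 h between 3.45 and 113 with a median of 32.6, and in WT at 0 h between 2.58 and 95.4 with a median of 22.3. The summed level was 1559.8 FPKM in the knockout at 24 h, 1282 in the knockout at 0 h, 1667 in WT at 24 h and 1269 in WT at 0 h. These sums were 0.442%, 0.377%, 0.472% and 0.375% of each library's total, in the same order. The order of the members by level was nearly the same in all libraries, with Spearman rho between 0.939 and 0.989 for the 6 pairs of libraries across 43 genes, which share the same transcripts and are not replicates.

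**Figure D1:**
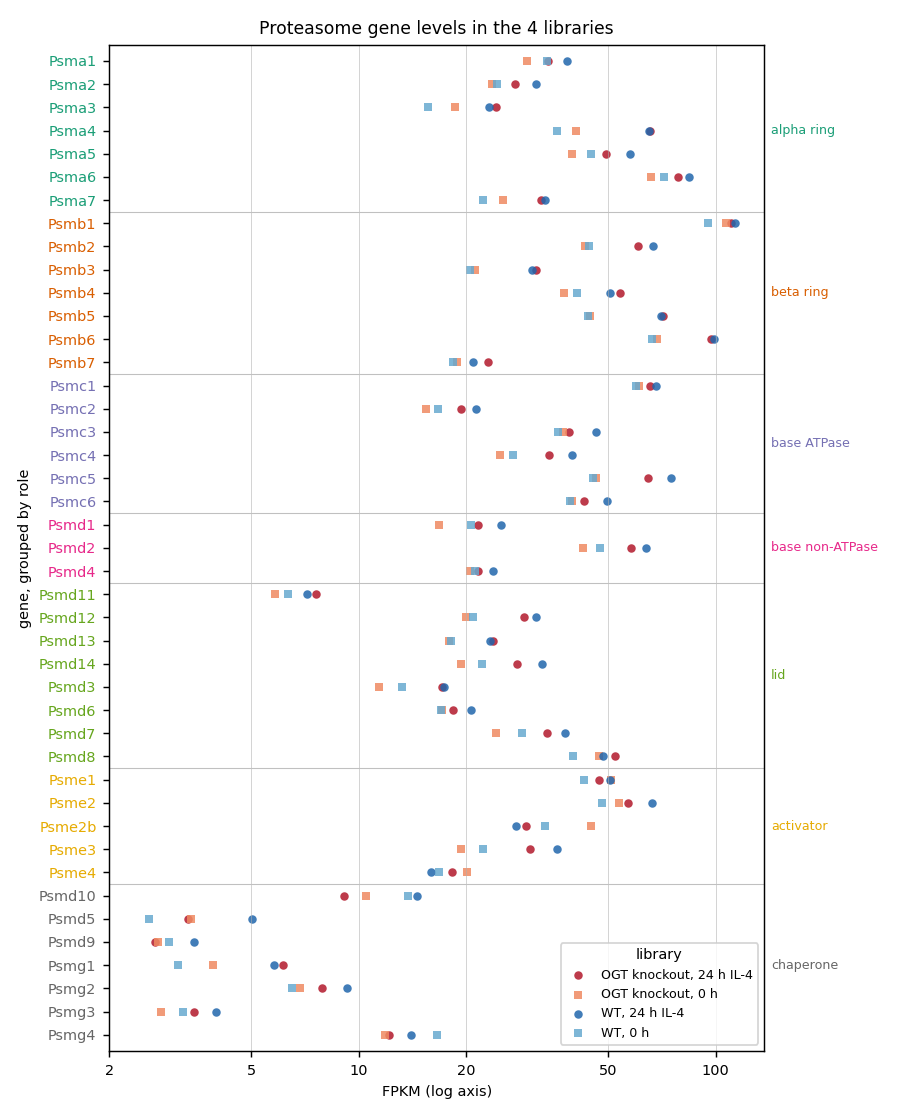
Level of each of the 43 members in the 4 libraries, in FPKM on a log axis, with genes grouped by role and named on the vertical axis. Circles are 24 h of IL-4 and squares are 0 h, with the OGT knockout in red shades and WT in blue shades. Within each genotype circles stand to the right of squares for all core, base and lid genes, which in the knockout holds for all but Psmb1 and Psmc3 once libraries are rescaled by median-of-ratios factors, and the chaperones are the lowest group.

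Among core subunits, Psmb1 and Psmb6 were the highest and Psma3 and Psmb7 the lowest by mean level. Psmb1, a structural beta subunit, stood at 110.2 FPKM in the knockout at 24 h, 106.5 in the knockout at 0 h, 113 in WT at 24 h and 95.4 in WT at 0 h. Psma3 stood at 24.3, 18.6, 23.1 and 15.7 in the same order. FPKM is scaled to length, so these levels can be compared between genes, but Psma3 has a pseudogene, Gm13835, which is identical to it over 665 of 2846 transcript bases and was listed at 18.3, 15.5, 20.1 and 12.9 FPKM. How reads were split between Psma3 and this copy was not tested. In the cap, the base ATPase Psmc1 was the highest by mean level at 59.7 to 67.9 FPKM and the lid subunit Psmd11 the lowest at 5.82 to 7.58. The chaperones lay between 2.58 and 16.5 FPKM in all libraries. Similar copies, at 95% identity or more over 200 bases or more, were annotated for 10 of the 43 members, and 9 of them had a copy at 1 FPKM or more. Exons of 12 members overlapped those of another annotated gene, among them Psmb7 with Nek6 on the opposite strand over 405 bases. Values of these genes are less certain.

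The first comparison asked how these genes differed after 24 h of IL-4. All 14 core genes and all 17 base and lid genes were higher at 24 h than at 0 h in both genotypes, by amounts mostly under 1.5-fold, except that with median-of-ratios scaling Psmb1 (−0.01) and Psmc3 (−0.00) lay just below 0 in the knockout. The summed level of the core was 758 FPKM at 24 h against 584 at 0 h in the knockout, 29.9% more, and 784 against 578 in WT, 35.7% more. The summed level of base and lid was 575 at 24 h against 467 at 0 h in the knockout (23.2% more) and 631 against 479 in WT (31.6% more). Activators and chaperones did not share this pattern as groups.

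Over all 43 members, 37 had a difference above 0 in the knockout and 40 in WT, where 52.2% and 52.1% of all protein-coding genes kept were above 0, and 6 and 3 were below, where 47.8% and 47.9% were. The median difference of the members was 0.31 in the knockout and 0.35 in WT on the log2 scale of FPKM + 1, against 0.02 in both genotypes for all genes kept. Few members passed 1.5-fold. In the knockout 3 of 43 were at least 1.5-fold higher (background 13.2%) and 1 was lower (background 12.7%), and in WT 6 were higher (background 12.9%) and none was lower (background 13.1%). No member reached 2-fold in either genotype (backgrounds 4.98% higher and 5.66% lower in the knockout, 4.65% and 6.17% in WT). Most members thus had differences above 0 and under 1.5-fold.

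**Figure D2:**
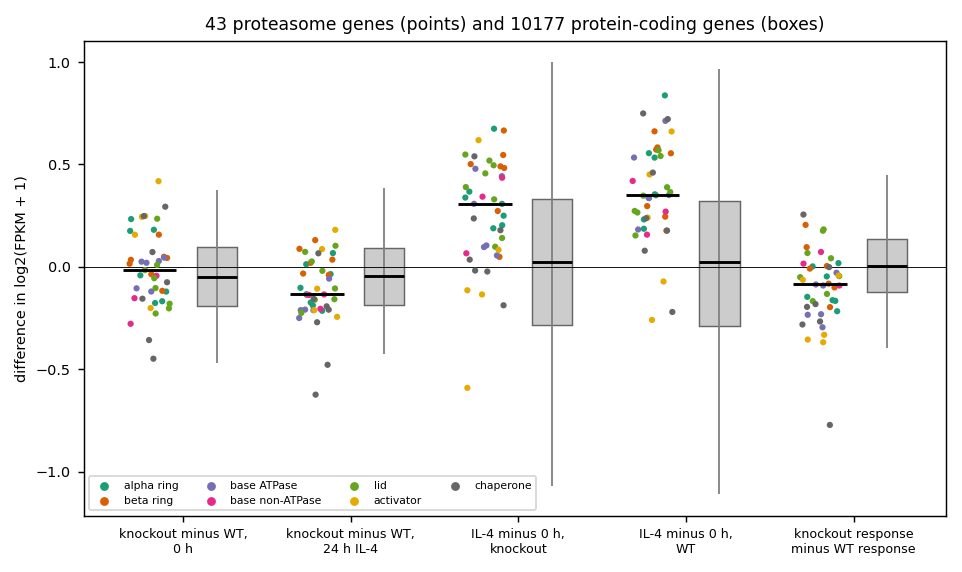
Differences in log2(FPKM + 1) of the 43 members (points, coloured by role, with a black line at their median) and of the 10177 protein-coding genes kept (grey boxes for the quartiles and median, lines for the central 90%) in the 5 comparisons. In the IL-4 comparisons the members' medians, 0.31 in the knockout and 0.35 in WT, stand above the median of all genes, 0.02.

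The catalytic subunits cut after different residues, and 2 of the 3 were near 1.5-fold. Psmb5, the chymotrypsin-like subunit (chromosome 14, 54614119 to 54618022, − strand), measured 71.2 FPKM in the knockout at 24 h, 44.5 in the knockout at 0 h, 70.2 in WT at 24 h and 44.0 in WT at 0 h. The genotypes differed little for this gene, and its IL-4 difference was 0.67 in the knockout and 0.66 in WT. Psmb6, the caspase-like subunit (chromosome 11, 70525367 to 70527858, + strand), measured 96.9, 68.6, 99.1 and 66.3 FPKM in the same order, a difference of 0.49 in the knockout and 0.57 in WT. Psmb7, the trypsin-like subunit (chromosome 2, 38588036 to 38644087, − strand), stood lower and differed less than Psmb5 and Psmb6, at 23.0, 18.8, 20.9 and 18.4 FPKM. Its difference was 0.27 in the knockout and 0.18 in WT. Nek6, whose exons overlap it, was at 12.1 FPKM in the knockout at 24 h, 2.31 in the knockout at 0 h, 12.3 in WT at 24 h and 3.84 in WT at 0 h, and the part of those reads in the value of Psmb7 was not tested.

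The immunoproteasome subunits that can take the places of these enzymes did not move as a block. Psmb8, which replaces Psmb5, was at 55.1 FPKM in the knockout at 24 h, 50.5 in the knockout at 0 h, 60.95 in WT at 24 h and 45.3 in WT at 0 h. Psmb9, which replaces Psmb6, was at 8.55, 16.2, 12.8 and 14.8 FPKM, and Psmb10, which replaces Psmb7, at 52.0, 33.8, 62.2 and 27.5. The level of Psmb6 was 11.3 times that of Psmb9 in the knockout at 24 h, 4.24 times in the knockout at 0 h, 7.75 times in WT at 24 h and 4.49 times in WT at 0 h. For Psmb7 against Psmb10 the same ratio was 0.441, 0.557, 0.336 and 0.667, and for Psmb5 against Psmb8 it was 1.29, 0.88, 1.15 and 0.972. So the standard subunit gained on its immune counterpart at 24 h in the Psmb5 and Psmb6 places and lost ground in the Psmb7 place, in both genotypes.

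The largest IL-4 difference among all members in both genotypes was that of Psma4, an alpha subunit (chromosome 9, 54950790 to 54958030, + strand) whose promoter is printed above. It stood at 65.5 FPKM in the knockout at 24 h, 40.7 in the knockout at 0 h, 64.9 in WT at 24 h and 35.9 in WT at 0 h, a difference of 0.67 in the knockout and 0.84 in WT. The 24 h values were alike and the 0 h value was lower in WT. A pseudogene of Psma4, Gm6542, was listed at up to 4.05 FPKM. Psma1 (0.19 in both genotypes) and Psma6 (0.25 in the knockout and 0.23 in WT) were among the alpha subunits with smaller differences. Other beta subunits were Psmb3 (0.55 in both genotypes), Psmb2 (0.48 in the knockout and 0.58 in WT), Psmb4 (0.50 and 0.30) and Psmb1 (0.05 and 0.25).

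In the base, the ATPase genes were unequal. Psmc5 stood at 64.8 FPKM in the knockout at 24 h, 46.2 in the knockout at 0 h, 75.0 in WT at 24 h and 45.4 in WT at 0 h, a difference of 0.48 in the knockout and 0.71 in WT. Psmc4 came next at 0.44 in the knockout and 0.53 in WT. Psmc3 (0.06 and 0.35), Psmc6 (0.10 and 0.34) and Psmc1 (0.10 and 0.18) were close to level in the knockout. Of the base subunits without ATPase activity, the scaffold Psmd2 stood at 57.8, 42.5, 63.7 and 47.3 FPKM in the order used above (0.44 and 0.42), and the ubiquitin receptor Psmd4 had the smallest difference of the 3 (0.07 and 0.16).

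In the lid, Psmd14, the enzyme that takes the ubiquitin chain off, stood at 27.8 FPKM in the knockout at 24 h, 19.4 in the knockout at 0 h, 32.6 in WT at 24 h and 22.1 in WT at 0 h (0.50 in the knockout and 0.54 in WT). The structural subunits Psmd12 (0.52 and 0.57) and Psmd3 (0.55 and 0.37) were close to it, while Psmd6 (0.10 and 0.27) and Psmd8 (0.14 and 0.27) lay lower. The median over the 8 lid genes was 0.42 in the knockout and 0.36 in WT.

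Activators went in different directions. Psme3, the nuclear PA28 gamma activator (chromosome 11, 101316213 to 101323537, + strand), measured 30.2 FPKM in the knockout at 24 h, 19.3 in the knockout at 0 h, 35.9 in WT at 24 h and 22.3 in WT at 0 h. Its difference was 0.62 in the knockout and 0.66 in WT, among the largest of all members. Psme4, the nuclear PA200 activator, was nearly level at 18.2, 20.1, 16.0 and 16.8 FPKM (−0.13 in the knockout and −0.07 in WT). Psme1 and Psme2 encode the alpha and beta subunits of the interferon-inducible PA28 activator. Psme1 (chromosome 14, 55578123 to 55581529, + strand) was at 47.0 FPKM in the knockout at 24 h, 51.0 in the knockout at 0 h, 50.7 in WT at 24 h and 42.8 in WT at 0 h, so that it was lower at 24 h in the knockout (−0.11) and higher in WT (0.24). Psme2 (chromosome 14, 55587441 to 55591113, − strand) was at 56.9, 53.7, 66.1 and 48.1 FPKM, a difference of 0.08 in the knockout and 0.45 in WT.

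Psme2b, a copy of Psme2 on another chromosome (chromosome 11, 48945354 to 48946190, − strand), was the only member at least 1.5-fold lower in any IL-4 comparison. It stood at 29.4 FPKM in the knockout at 24 h, 44.7 in the knockout at 0 h, 27.6 in WT at 24 h and 33.2 in WT at 0 h, a difference of −0.59 in the knockout and −0.26 in WT. Its transcript is 99.4% identical to that of Psme2 over 794 bases, so the split of reads between them is uncertain. The plain sum of both FPKM values, which ignores their unlike lengths, was 86.3 FPKM in the knockout at 24 h, 98.4 in the knockout at 0 h, 93.7 in WT at 24 h and 81.3 in WT at 0 h, a difference of −0.19 in the knockout and 0.20 in WT. The exon of Psme2b also overlaps 41 bases of 9930111J21Rik1 on the same strand, which was at 13.4, 26.9, 11.3 and 23.8 FPKM in the same order. The part of that gene in the value of Psme2b was not tested. With a pseudocount of 5 FPKM in place of 1, the difference of Psme2b in the knockout came to −0.53, under 1.5-fold.

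**Figure D3:**
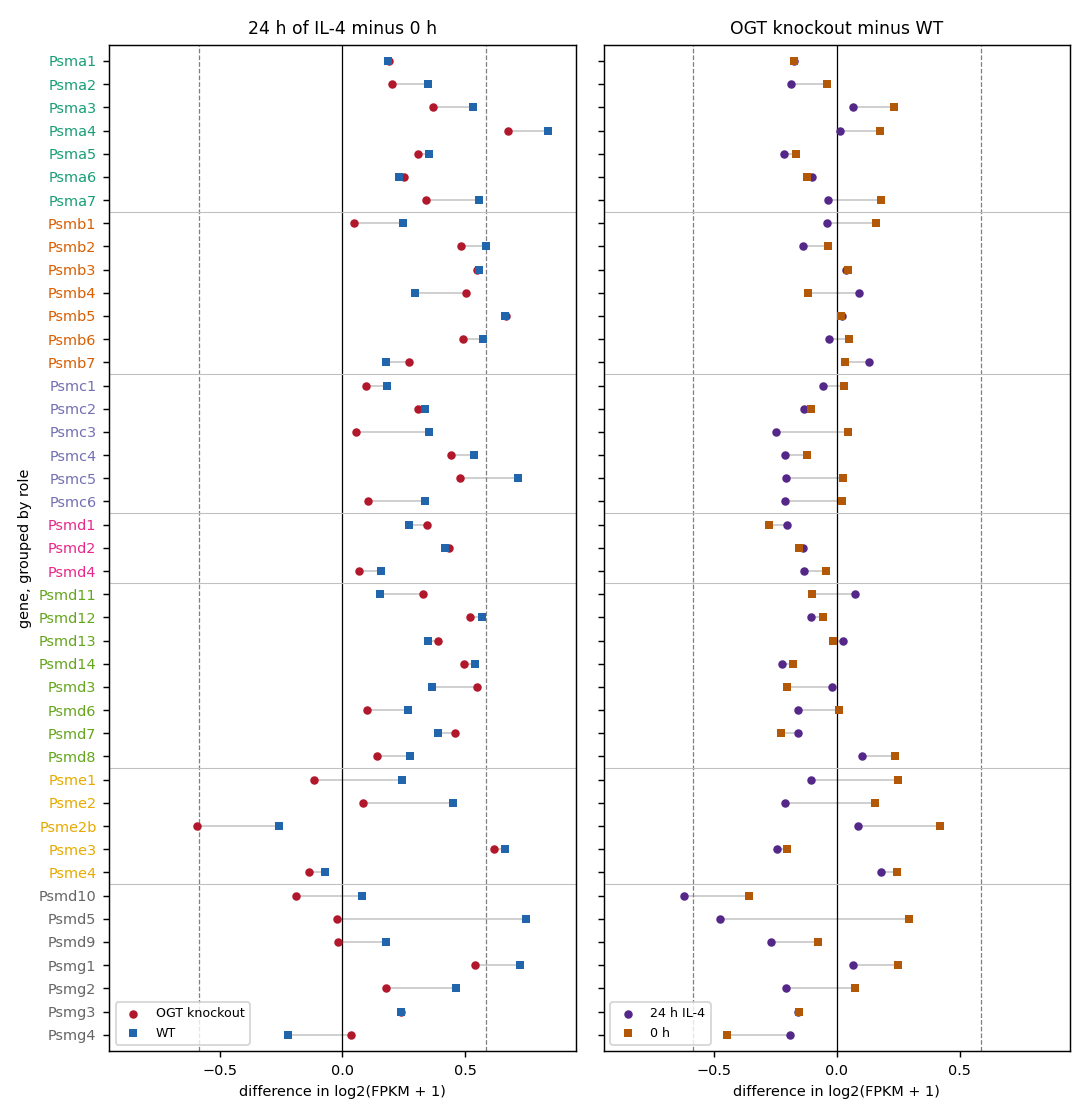
Differences in log2(FPKM + 1) for each of the 43 members, grouped by role. The left panel gives 24 h of IL-4 minus 0 h in the OGT knockout (circles) and WT (squares), and the right panel the OGT knockout minus WT at 24 h of IL-4 (circles) and 0 h (squares), with dashed lines at 1.5-fold. Psma4, Psmb5 and Psme3 lie past the upper line in both genotypes on the left, Psme3 not so with a pseudocount of 5, and Psmd10 alone lies past a line on the right.

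The chaperones were few and low, and their counting error was the largest. Psmg1, a chaperone of the alpha ring, stood at 6.12 FPKM in the knockout at 24 h, 3.90 in the knockout at 0 h, 5.80 in WT at 24 h and 3.12 in WT at 0 h (0.54 in the knockout and 0.72 in WT). Its partner Psmg2 stood at 7.91, 6.87, 9.29 and 6.48 FPKM (0.18 and 0.46), and Psmg3 at 3.46, 2.79, 3.97 and 3.22 (0.24 in both genotypes). Psmg4, which works with Psmg3, differed from these, at 12.2, 11.8, 14.0 and 16.5 FPKM (0.04 and −0.22). The base chaperone Psmd5 was at 3.32 FPKM in the knockout at 24 h, 3.39 in the knockout at 0 h, 5.02 in WT at 24 h and 2.58 in WT at 0 h, a difference of −0.02 in the knockout and 0.75 in WT. Depth was estimated from the values at 20417379 to 22387211 fragments per library. On this estimate a member's value rested on 50.3 to 4771 fragments with a median of 989, and counting alone gave a standard deviation of the log2 difference of 0.07 at the median and at most 0.27, the value for Psmg3. For Psmd5 it was between 0.11 and 0.12. These standard deviations are for the log2 ratio without the pseudocount. They are therefore larger than on the log2 scale of FPKM + 1, most so for low genes.

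The responses of the genotypes were then set side by side. As deposited, of 43 members 36 were above 0 in both, 2 were below 0 in both (Psme2b and Psme4) and 5 had opposite signs. The sign was thus shared by 88.4% of members, near the 84.9% of all genes kept. With median-of-ratios scaling 34 members were above 0 in the knockout in place of 37, as Psmb1, Psmc3 and Psmg4 turned below 0. Pearson r between the responses was 0.738 across the 43 genes and Spearman rho was 0.700, both below the 0.897 and 0.858 over all genes kept. These comparisons share no library, and the genes are not independent replicates. Psma4, Psmb5 and Psme3 were at least 1.5-fold higher in both genotypes, and Psmc5, Psmg1 and Psmd5 in WT but not in the knockout. With a pseudocount of 5 Psme3 was short of 1.5-fold in both genotypes (0.53 in the knockout and 0.58 in WT), as were Psmg1 (0.41) and Psmd5 (0.40) in WT, and with median-of-ratios scaling Psme3 was short of it in the knockout (0.56). With 1 library per group it was not tested whether the genotypes differ for these genes.

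The next comparison set the knockout against WT. In this check of the labels, Ogt itself measured 14.5 FPKM at 24 h and 14.2 at 0 h in knockout cells, against 29.8 at 24 h and 27.4 at 0 h in WT, or 48.5% and 51.8% of WT at the same time. A gene-level value does not show which exons were read, and the amount of OGT protein left cannot be read from these values.

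At 0 h the proteasome genes of the knockout and WT differed by little. The summed level was 1282 FPKM in the knockout against 1269 in WT, 1.02% more. Of 43 members, 21 were above 0 and 22 below (backgrounds 40.5% and 59.4%), with a median of −0.02 against −0.05 for all genes kept. The members' median turned to 0.03 with median-of-ratios scaling and 0.02 with upper-quartile scaling, against −0.01 and −0.02 for all genes kept. None was 1.5-fold higher or lower, where 2.08% and 2.74% of all genes were, and none 2-fold (backgrounds 0.56% and 0.658%), and 40 of 43 members were within 1.25-fold, against 81.5% of all genes. The activators leaned higher, in 4 of 5 genes with a median of 0.24. Psme2b measured 44.7 FPKM in knockout cells against 33.2 in WT (0.42), Psme1 at 51.0 against 42.8 (0.25) and Psme4 at 20.1 against 16.8 (0.24), while Psme3 was at 19.3 against 22.3 (−0.20). The lowest differences were those of the chaperones Psmg4, at 11.8 in the knockout against 16.5 in WT (−0.45), and Psmd10 (−0.36), followed by the base scaffold Psmd1, at 16.8 against 20.6 (−0.28). All 3 base subunits without ATPase activity were below 0, although Psmd4 (−0.04) turned to 0.00 with median-of-ratios scaling.

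At 24 h of IL-4 the members were slightly lower in the knockout. The summed level was 1559.8 FPKM in the knockout against 1667 in WT, a difference of −6.42%. Of 43 members, 12 were above 0 (background 41.1%) and 31 below (background 58.8%), with a median of −0.13 against −0.04 for all genes kept. With either rescaling 16 were above 0, and the median was −0.09 (median-of-ratios) or −0.10 (upper-quartile), against −0.01 for all genes kept in both. The share of all genes above 0 was not taken on rescaled values, so the backgrounds given do not apply to that count. None was at least 1.5-fold higher (background 2.11%) or past 2-fold (backgrounds 0.58% higher and 0.393% lower). The summed base and lid level was 575 FPKM in the knockout against 631 in WT (−8.80%), and that of the chaperones 44.8 against 56.2 (−20.3%). All 6 base ATPases and all 3 other base subunits were below 0, with medians of −0.21 and −0.14, and Psmc3, with 38.8 FPKM in knockout cells against 46.3 in WT (−0.25), was the lowest of them. The beta ring was level, with 4 of 7 genes above 0 and a median of 0.02, and its catalytic subunits were at 0.02 for Psmb5, −0.03 for Psmb6 (0.01 with either rescaling) and 0.13 for Psmb7. In the alpha ring 2 of 7 genes were above 0 (median −0.10).

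Psmd10 was the only member past 1.5-fold between genotypes. This gene (chromosome X, 140948429 to 140956728, − strand) encodes gankyrin, an ankyrin-repeat chaperone of the base. It measured 9.11 FPKM at 24 h and 10.5 at 0 h in knockout cells, against 14.6 at 24 h and 13.7 at 0 h in WT. Both knockout values were below both WT values. The difference was −0.62 at 24 h, where 1.94% of all genes kept were at least 1.5-fold lower and 1 of 43 members was, and −0.36 at 0 h. With libraries rescaled by median-of-ratios factors the 24 h difference was −0.58 and with a pseudocount of 5 it was −0.47, both short of 1.5-fold. The base chaperones Psmd5, with 3.32 FPKM in knockout cells against 5.02 in WT (−0.48), and Psmd9, at 2.69 against 3.45 (−0.27), were also lower at 24 h. These 3 base chaperones had the lowest differences of all 43 members at 24 h. With a pseudocount of 5 Psmd9 came to −0.14, behind Psmc3 (−0.23) and others, while Psmd5 came to −0.27 and stayed below Psmc3. At 0 h the 3 base chaperones were not alike, since Psmd5 was at 3.39 in the knockout against 2.58 in WT (0.29).

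Between 0 h and 24 h the knockout differences of the 43 members had a Pearson r of 0.435 and a Spearman rho of 0.419, against 0.377 and 0.481 over all genes kept. The 0 h and 24 h comparisons share no library. Of 43 members, 9 were above 0 at both times, 19 below 0 at both times and 15 had opposite signs. The share with the same sign, 65.1%, was near the 69.1% of all genes kept. As deposited, those below 0 at both times were spread over the roles. In the cap they were all 3 base subunits without ATPase activity, the ATPases Psmc2 and Psmc4, and the lid subunits Psmd3, Psmd7, Psmd12 and Psmd14. In the core they were Psma1, Psma2, Psma5, Psma6 and Psmb2. The rest were the activator Psme3 and the chaperones Psmd10, Psmd9, Psmg3 and Psmg4. Psme4, Psme2b, Psmd8, Psma3 and Psmb5 were among those above 0 at both times. Apart from Psmd10 at 24 h these differences were under 1.5-fold. The difference of Psmb5 was 0.02 at both times, where counting alone gave a standard deviation of 0.07 at 0 h and 0.06 at 24 h. For 2 others the sign at 24 h turned when a similar copy was added to the FPKM. Psma3 with Gm13835 came to −0.02, and Psme2b with Psme2 to −0.12.

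The knockout response minus the WT response uses all 4 libraries and equals the genotype difference at 24 h minus that at 0 h. It was above 0 in 12 of 43 members (background 50.5%) and below 0 in 31 of 43 members (background 49.5%) with a median of −0.09, against 0.00 for all genes kept, and 1 member was at least 1.5-fold lower (background 2.2%) and none higher (background 2.73%), while none was past 2-fold (backgrounds 0.845% higher and 0.727% lower). That member was Psmd5 (−0.77), which was short of 1.5-fold with a pseudocount of 5 (−0.41). All 5 activators and all 6 base ATPases were below 0, with medians of −0.33 and −0.16, while the beta ring (−0.01) and the lid (0.00) were centred near 0. Of the activators and base ATPases, Psmc2 (−0.03), Psme3 (−0.04) and Psme4 (−0.06) lay close to 0. Psme2 and Psme2b are near-identical and may share reads, so they are not 2 separate observations. Psme2 (−0.37), Psme1 (−0.36) and Psme2b (−0.33) came next after Psmd5, and the sum of Psme2 and Psme2b stood at −0.39. Rescaling the libraries shifted the median of all genes kept by only −0.0013 or 0.0068 in this comparison, so it was no check on these signs. The highest values were those of Psmg4 (0.26), Psmb4 (0.21) and Psmd3 (0.18).

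The PA28 genes were read beside genes that interferon raises. In a list of 7 such genes outside the members (Psmb8, Psmb9, Psmb10, the peptide transporters Tap1 and Tap2, and the regulators Irf1 and Nlrc5), the knockout response minus the WT response was below 0 in all 7 (background 49.5%), with a median of −0.31. Psmb9 was at −0.65, Psmb10 at −0.54 and Irf1 at −0.47, and 1 of the 7 was at least 1.5-fold lower (background 2.2%). The same genes were mostly higher in the knockout than in WT at 0 h (6 of 7, median 0.16, background 40.5%). At 24 h they were mostly lower (6 of 7, median −0.25, background 58.8%). None of them was past 1.5-fold at either time (backgrounds 2.08% higher and 2.74% lower at 0 h, 2.11% and 1.94% at 24 h). Irf1 was at 13.8 FPKM in the knockout at 24 h, 31.6 in the knockout at 0 h, 19.4 in WT at 24 h and 31.5 in WT at 0 h. It was lower at 24 h in both genotypes, whereas Psme1 and Psme2 were higher at 24 h in WT. Exons of Psmb9 and Tap1 overlap over 212 bases, which adds doubt to both.

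The promoters of the members were therefore also searched, after these values had been seen, for 2 interferon elements on both strands, GAAA repeated after a gap of 2 bases, and TTCNNNGAA. The GAAA repeat was in 5 of 39 member windows (12.8%) and in 3.44% of all windows, and TTCNNNGAA in 2 of 39 (5.13%) and in 8.3% of all windows. The 5 windows with the GAAA repeat were those of Psmb3, Psmd4, Psmg4, Psmd9 and Psme1. Their knockout responses minus WT responses were −0.01, −0.09, 0.26, −0.20 and −0.36, in that order. Neither window of Psme2 (−0.37) held the repeat. Whether the element bears on these values was not tested. Of the 6 activator windows only that of Psme1 held the GAAA repeat, on the reverse strand and 9 bases after the start site. It is printed because Psme1 is a PA28 gene, with the match in capitals.
Psme1 (chr14:55578244-55578543, + strand): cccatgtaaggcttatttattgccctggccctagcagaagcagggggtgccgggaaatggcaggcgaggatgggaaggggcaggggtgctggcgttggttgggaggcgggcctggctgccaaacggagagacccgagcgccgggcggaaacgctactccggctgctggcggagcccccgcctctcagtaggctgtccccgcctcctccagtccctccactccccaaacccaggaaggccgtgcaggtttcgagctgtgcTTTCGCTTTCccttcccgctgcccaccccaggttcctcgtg

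**Figure D4:**
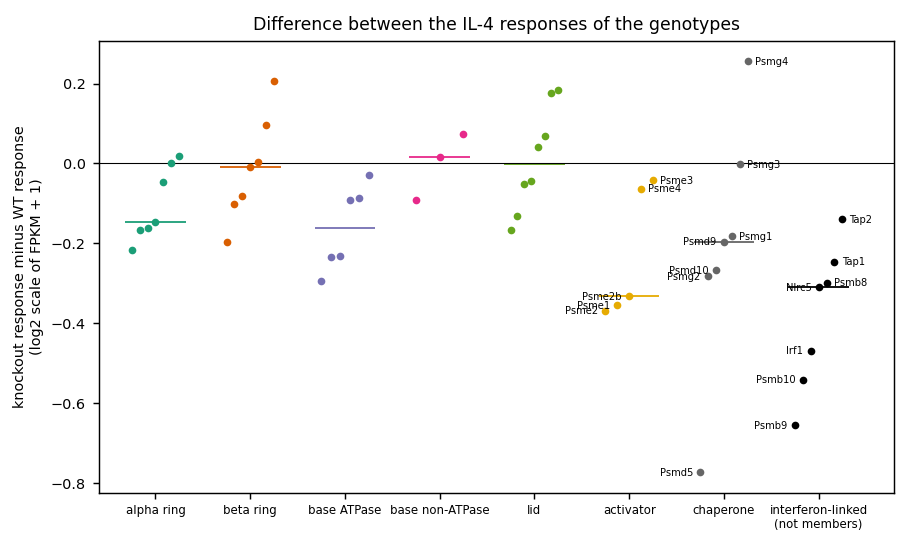
Knockout response to IL-4 minus WT response, on the log2 scale of FPKM + 1, for each member by role and for 7 interferon-linked genes that are not members. Points are genes, lines are group medians, and gene names are given for activators, chaperones and interferon-linked genes. All 5 activators (Psme3 and Psme4 only just) and all 7 interferon-linked genes lie below 0, as do 49.5% of all genes kept, and Psmd5 is the lowest at −0.77.

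Nfe2l1, whose product raises proteasome genes when proteasome activity is short, was set beside the members. It measured 33.4 FPKM at 24 h and 30.6 at 0 h in knockout cells, against 11.5 at 24 h and 8.56 at 0 h in WT, a difference of 1.46 at 24 h and 1.73 at 0 h. The summed level of the core in the same libraries was 758 and 584 FPKM in the knockout against 784 and 578 in WT, a difference of −3.28% at 24 h and 1.04% at 0 h. Of the other 16 genes in a list of NFE2L1 control, none was past 1.5-fold between genotypes at either time (backgrounds 2.08% higher and 2.74% lower at 0 h, 2.11% and 1.94% at 24 h). Among them were Ddi2, the protease that activates NFE2L1 (0.09 at 24 h and 0.10 at 0 h), Ngly1, the enzyme that removes its sugar chains (−0.03 and −0.20), Vcp, the ATPase that extracts it from the membrane (−0.12 and −0.22), and the related factor Nfe2l2 (−0.11 and −0.26). Hcfc1, a chromatin-bound partner that OGT modifies and cleaves, had the next largest difference of the list at 24 h (0.50) and at 0 h (0.54). These are transcript levels and say nothing of the amount of active NFE2L1 protein.

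**Figure D5:**
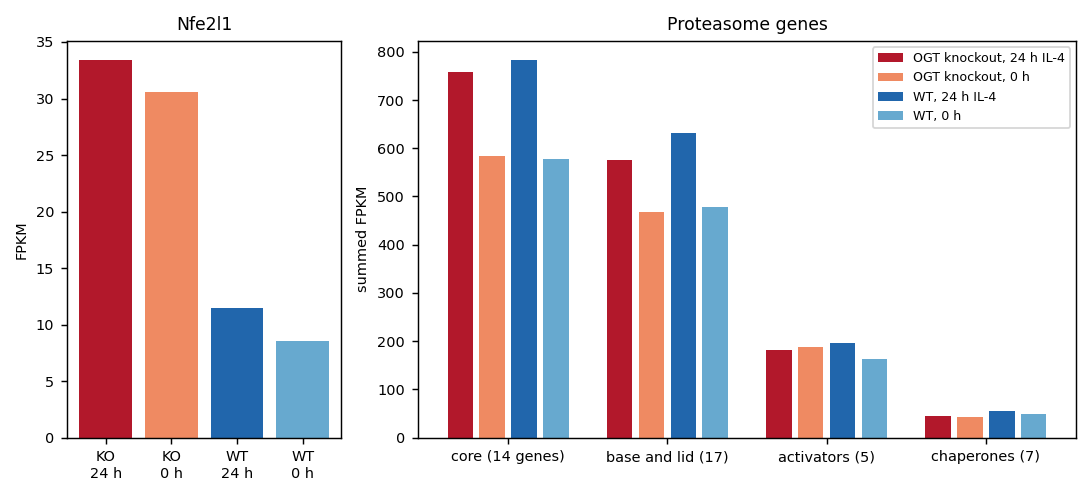
Level of Nfe2l1 in FPKM (left) and summed FPKM of the core, base and lid, activator and chaperone genes (right) in the 4 libraries, with bars from 0 and no error since each bar is 1 library. Nfe2l1 is at 33.4 and 30.6 FPKM in the knockout against 11.5 and 8.56 in WT, while the summed core level is 758 and 584 FPKM in the knockout against 784 and 578 in WT, at 24 h and 0 h.

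Other proteins of the proteasome, outside the symbols used here, were also mostly higher with IL-4. In a list of 17 further subunits and proteasome-bound proteins, 14 were above 0 in the knockout (median 0.30, background 52.2%) and 15 in WT (median 0.40, background 52.1%). At least 1.5-fold higher were 2 of 17 in the knockout (background 13.2%), Zfand5 (0.71) and Usp14 (0.67), and 3 of 17 in WT (background 12.9%), Usp14 (0.74), Akirin2 (0.64) and Pomp (0.61). Usp14, the deubiquitinase bound to the base, stood at 13.5 FPKM in the knockout at 24 h, 8.12 in the knockout at 0 h, 16.6 in WT at 24 h and 9.58 in WT at 0 h, but 26.0% of its exon bases overlap those of Thoc1. Pomp, the chaperone that completes the core, stood at 20.7, 16.6, 21.1 and 13.5 FPKM, a difference of 0.30 in the knockout and 0.61 in WT. Between genotypes none of the 17 was past 1.5-fold at 0 h (backgrounds 2.08% higher and 2.74% lower) or at 24 h (2.11% and 1.94%). In a list of this length, none is close to those shares. None of 5 genes for ubiquitin and its activating enzymes passed 1.5-fold in any of the comparisons (backgrounds of 1.94% to 13.2% in each direction). Of these, the activating enzyme Uba1 was higher at 24 h of IL-4 (0.34 in the knockout and 0.39 in WT), and the polyubiquitin gene Ubb was at −0.16 and −0.22.

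The FPKM totals of the libraries, which are not depths, were 338704 to 353093, with 10920 to 11169 genes at 1 FPKM or more. Genes of the mitochondrial genome made up 8.99% of all FPKM in the knockout at 24 h, 7.47% in the knockout at 0 h, 9.01% in WT at 24 h and 6.28% in WT at 0 h. All 7 macrophage markers looked at (Adgre1, Csf1r, Cd68, Fcgr1, Mertk, Itgam and Lyz2) were kept, with Cd68 at 965 to 1009 FPKM. They summed to 6337 FPKM in the knockout at 24 h, 15419 in the knockout at 0 h, 6314 in WT at 24 h and 18475 in WT at 0 h. Most of each sum was Lyz2 (4148, 12062, 4246 and 15193 FPKM in the same order). With IL-4, 5 of the 7, not including Cd68, were at least 1.5-fold lower in both genotypes (backgrounds 12.7% in the knockout and 13.1% in WT). For the knockout minus WT, Itgam came to −1.07 at 24 h and −0.17 at 0 h, and Fcgr1 to 0.63 and 0.66. The near-equal sums at 24 h do not show these differences. No other marker of the 7 passed 1.5-fold between genotypes. Neutrophil markers summed over 9 genes were at 576 FPKM in the knockout at 24 h, 1679 in the knockout at 0 h, 913 in WT at 24 h and 2733 in WT at 0 h, with 8 of 9 kept and Ly6g under 1 FPKM. None of these 8 was above 0 for the knockout minus WT at 24 h (background 41.1%) or 0 h (background 40.5%), with medians of −0.55 and −0.70. At least 1.5-fold lower were 4 of 8 at 24 h (background 1.94%) and 5 of 8 at 0 h (background 2.74%). Megakaryocyte markers (4 of 4 kept) summed to 28.7, 47.4, 48.8 and 100.3 FPKM in the same order, and fibroblast markers (3 of 5 kept) to 4.58, 7.35, 6.23 and 12.5. Of the 4 B cell markers only Cd79b was kept, and Cd3e, Cd3d and Cd3g of T cells were listed at 0 in both knockout libraries and at 0.24 FPKM or less in WT. No erythroid or dendritic cell marker reached 1 FPKM, and Hbb-bt was listed at 0 in all libraries. Dividing-cell markers (5 of 5 kept) summed to 19.6 FPKM in the knockout at 24 h, 14.3 in the knockout at 0 h, 26.7 in WT at 24 h and 20.5 in WT at 0 h. The part of neutrophils, of other cells and of cell division in the members' differences was not tested, and in bulk RNA fewer cells of a type and less RNA per cell cannot be told apart.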

How the data were processed

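RNA-seq of 4 libraries of mouse macrophages, 1 per group, was read from the authors' deposited table of FPKM values, fragments scaled for transcript length and sequencing depth. The table names no unit, and FPKM was read from its values and column totals. Per the submitters' processing notes, the tools were STAR and StringTie and the build GRCm38. The sources used here do not give versions, annotation release or strandedness.

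Symbols, gene types and positions came from GENCODE M21 (GRCm38), with a symbol for 52403 genes. Differences were taken as log2 ratios after adding a pseudocount of 1 to each FPKM, in Python 3.11.15 with pandas 2.3.3. This scale understates differences of low genes. Genes at 1 FPKM or more in any library were kept, and calls are differences past 1.5-fold or 2-fold on that scale. With 1 library per group there were no tests. Percentages given as background are shares of the 10177 protein-coding genes kept. Psmd5, Psmd9 and Psmd10 were counted as chaperones. A few genes of the lists are not reported here. The members, roles and lists were chosen with earlier results of these data known. Genes are named by rule: the catalytic subunits, members past 1.5-fold, the 3 highest and 3 lowest differences per comparison, the highest and lowest level of each role, and of the other lists the genes past 1.5-fold, up to 4 more, and a few set by name. Other members are given for their role, chosen after their values were seen. Copies were sought with blastn among GENCODE transcripts. Depth was estimated as the most common product of FPKM and length over genes of 1000 bases or more with 1 exon, taken as 1 fragment. It is an estimate and covers counting error only. The procedure was run on simulated data with counting noise only, where folds past 1.5 were set in genes at 5 FPKM or more. That run did not cover set differences under 1.5-fold, set differences in lower genes or variation between cultures. Alternatives were pseudocounts of 0.1 and 5, rescaled libraries, no filter, a filter at 5 FPKM, and another placing of the base chaperones.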

Additional observations from a re-analysis of the deposited data

Results flagged for a closer look

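In 5 of the 43 members the IL-4 difference had opposite signs in the genotypes, and the difference between the genotypes was not tested, since each group is 1 library. The knockout response minus the WT response was −0.77 for Psmd5, −0.36 for Psme1, −0.27 for Psmd10 and −0.20 for Psmd9, which were below 0 in the knockout and above 0 in WT. It was 0.26 for Psmg4, which was above 0 in the knockout and below 0 in WT. The response of Psmg4 was 0.04 in the knockout and −0.22 in WT, with standard deviations from counting of 0.17 and 0.15. With median-of-ratios scaling Psmg4 lay below 0 in both genotypes, while Psmb1 and Psmc3 turned below 0 in the knockout only. For Psmd9 the response was −0.02 in the knockout and 0.18 in WT. Counting alone gave a standard deviation of 0.17 in the knockout and 0.15 in WT. Those are for the log2 ratio without the pseudocount and would be smaller on the scale of the responses.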

How the results depend on the processing

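No paired analysis was possible because each group holds 1 library. Medians over all members moved by 0.1 or less under every setting run. The count of members at least 1.5-fold lower in the knockout at 24 h was 1 (Psmd10) and became 0 with a pseudocount of 5 and 0 with median-of-ratios scaling. The count lower at 0 h, 0 as reported, became 1 with no filter, through Psma8. With a pseudocount of 5 the count higher with IL-4 in WT was 3 in place of 6, the count lower with IL-4 in the knockout was 0 in place of 1, and the count of responses lower in the knockout than in WT was 0 in place of 1 (Psmd5). With a pseudocount of 0.1, 3 differences of single members that were short of 1.5-fold as reported passed it. The 2-fold counts did not change. With median-of-ratios scaling 25 of 43 members were above 0 for the knockout minus WT at 0 h and 16 of 43 at 24 h, in place of 21 and 12. The share of all genes above 0 was not taken on rescaled values. The members' median at 0 h was then 0.03 in place of −0.02, against −0.01 for all genes kept. For the IL-4 difference in the knockout 34 members were above 0 in place of 37, while in WT 40 stayed above 0. Of the medians by role, those of the chaperones moved by more than 0.1, among them the IL-4 difference in the knockout, 0.04 as reported and 0.21 with Psmd5, Psmd9 and Psmd10 placed elsewhere. The causes were not tested. Depth limits Psmg3, Psmg1, Psmg4 and Psmd9 most.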
